A study of Ambystoma mexicanum with 7 samples.

Results

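The regions described here are sites of open chromatin that were called in the systemically activated limb and in the blastema of the axolotl but not in the intact limb. They were taken as the peaks of the systemically activated list on named chromosome arms that no intact peak overlapped and that a blastema peak overlapped by at least 1 base. The rule found 3127 such activated–blastema sites among 16842 systemically activated peaks on named arms, or 18.6%. Of the same 16842 peaks, 24.0% had no intact overlap and 93.9% had a blastema overlap. Together the sites covered 838 kb, which was 13.3% of the bases covered by those 16842 peaks. The sites were chosen by the overlap of the deposited lists, which are measured values, so their presence in 2 lists and absence from the third is their definition and not a result. The strength and width of the sites come from the same lists and are given as description.

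The data were ATAC-seq peak lists from wild-type Ambystoma mexicanum, a salamander that regrows amputated limbs. The 7 samples were 2 of systemically activated limb tissue, 2 of blastema with wound epidermis and 3 of intact limb tissue. All were live cells sorted for a 4C DNA content, which is that of cells that have copied their genome. Limbs were taken 14 days after amputation, per the series design. The sources used here state neither the day for the blastema nor the age of the animals, how many were pooled for a sample or whether samples came from separate animals. No promoter, transgene or clone is involved. The sort was by DNA content alone, so each list mixes every cell type of its tissue that reached that content, and no marker gene was available to check the tissue labels.

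Systemic activation is the re-entry of cells into the cell cycle in uninjured limbs when another limb is amputated. A blastema is a growing bud on the amputated stump, made of progenitor cells beneath a specialised wound epidermis, from which the lost part is rebuilt. In ATAC-seq the transposase Tn5 cuts and tags DNA where nucleosomes leave it exposed, which is typical of promoters, enhancers and other regulatory elements. Sites that are open in regenerating tissue and closed in resting tissue are commonly studied as candidate regulatory elements. Whether any site described here is one cannot be read from a peak list. In bulk tissue, fewer cells with an open site and a less open site in each cell cannot be told apart.

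The authors deposited 1 list for each group, so no sample has a value of its own, and nothing below could be compared with the spread between replicates. No test between conditions was possible. Intervals are exact 95% intervals over peaks and cover counting error only. Each peak has a summit, the base with the most overlapping fragments. It also has a fold, which is the pileup of fragments at the summit plus 1, divided by the local background plus 1. Its −log10 q is a significance value within its own list. The activated list held 17326 peaks, the blastema list 168368 and the intact list 25843. The lowest background, a measure of depth, was 0.375 fragments in the activated list, 2.49 in the blastema list and 0.529 in the intact list. The blastema list was therefore several times deeper than either limb list. The genome build is not given in the sources used here, so positions are 1-based on the chromosome arms and numbered arm segments named in the lists. No genome of that build was used here, and the genes, annotated features and letters under the sites were not analysed here.

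The activated–blastema sites were mostly weak and narrow peaks of the activated list. Their median width was 240 bases (95% interval 237 to 243), and 819 of 3127, or 26.2%, had the shortest width in the list, 200 bases. The intact and blastema lists had the same shortest width, so 200 bases may be a floor of the calling and not a measured size. Activated peaks found in all 3 lists had a median width of 377 bases (374 to 380), with 6.62% at the shortest width. The median pileup at the summit was 11 fragments at the activated–blastema sites and 16 at activated peaks of all 3 lists. The median fold was 5.26 and the median −log10 q was 3.92, against 5.91 and 6.10 for peaks of all 3 lists. Activated peaks in no other group list were weaker still, with a median pileup of 8 fragments and a median −log10 q of 3.22. The 116 activated peaks in the activated and intact lists alone were close to the sites. Their median pileup was 11 fragments, their median −log10 q 3.92 and their median width 260 bases (237 to 301). Low strength was thus not particular to the activated–blastema sites.

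The share of activated peaks that were activated–blastema sites fell with strength along the whole activated list. In the weakest decile of −log10 q it was 36.8% (622 of 1692 peaks), and in the fifth decile 21.7%. In the strongest decile it was 0.896%, or 15 of 1674 peaks. The sites were thus more frequent among weaker activated peaks, although 785 of the 3127 had a −log10 q of at least 5. Activated peaks in no other group list showed the same trend, with 18.4% of the weakest decile and 0.0597% of the strongest. The rule used these overlaps, so the trend is a description of the chosen sites.

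**Figure D1:**
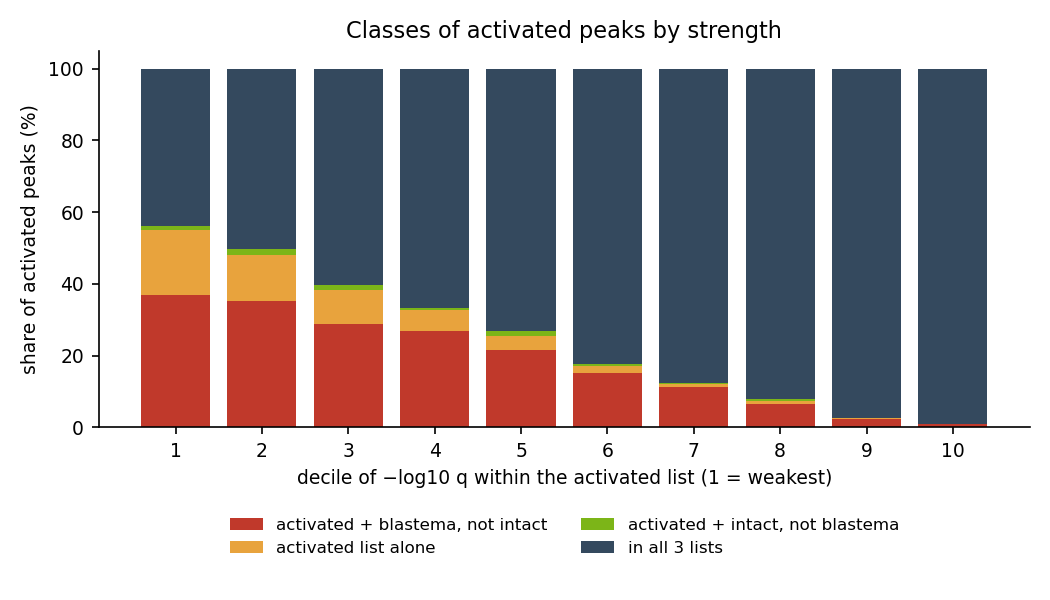
Share of systemically activated peaks on named arms (y, percent) in each class of overlap, by decile of −log10 q within the activated list (x, 1 weakest to 10 strongest). The red part, the activated–blastema sites, takes 36.8% of the weakest decile and 0.896% of the strongest.

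The strongest site stood well apart from the others. It lay on 5q segment 1 from 65137847 to 65138105, where 35 fragments piled up at the summit (fold 10.8) and −log10 q reached 23.4. It was 259 bases wide, and its blastema peak, of 296 bases, covered it wholly. The blastema peak held 91 fragments (fold 9.41), and its −log10 q was 53.4. The summits of the 2 lists were 3 bases apart. The closest intact peak lay at a distance of 3914 bases. The next highest −log10 q among the sites was 13.1, on 7q segment 2 from 302100942 to 302101150, where 22 fragments gave a fold of 8.91. There the blastema peak was 219 bases wide and held 46 fragments at its summit, and an intact peak lay 920 bases away.

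Among the 10 sites with the highest −log10 q, summits in the activated and blastema lists were within 10 bases of each other at 4. Besides the 5q site these were on 1p segment 2 (24343911 to 24344128), 1p segment 0 (94554153 to 94554421) and 1q segment 1 (288426901 to 288427276). Their summit distances were 4, 5 and 7 bases. The first of these had a pileup of 19 fragments in the activated list and 54 in the blastema list, and an intact peak was 2955 bases away. The second had 18 and 48 fragments, with the nearest intact peak 430341 bases away. The third had 21 and 46 fragments, with the nearest intact peak 129028 bases away.

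Some of the others among these 10 lay within wide blastema peaks. A site on 2p segment 0 from 55976067 to 55976611, with 27 fragments, lay 3 bases from an intact peak inside a blastema peak of 1533 bases. A site on 11q segment 2 from 141638103 to 141638457, with 35 fragments over a high background of 5.44, lay 133 bases from an intact peak. Its blastema peak was 2394 bases wide, with the summit 1056 bases away. In both cases that same blastema peak also overlapped an intact peak. High significance in the activated list thus went with closely matching summits at some sites, and at others with a blastema peak that was much wider and shared with intact limb.

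Ranking by fold in place of −log10 q kept 5 of the first 10 sites and brought in 5 others, 4 of them with few fragments over a low background. One on 5q segment 2 from 379423809 to 379424025 had 12 fragments over a background of 0.375, which gave a fold of 9.45. Its blastema peak had 35 fragments and a fold of 10.3. A site on 8q segment 1 from 353501129 to 353501354 also had 12 fragments (fold 8.78), and its blastema peak had 16. A pair of sites with 11 fragments each and a fold of 8.72 followed, on 1q segment 0 (299357351 to 299357613) and 2p segment 2 (388281258 to 388281500). Their blastema peaks held 24 and 16 fragments. The fifth, on 12q segment 0 from 264794694 to 264795015, was more like the sites of the first ranking, with 19 fragments over a background of 1.32 and a −log10 q of 11.3. Its blastema peak had 47 fragments, with summits 9 bases apart.

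For description the sites were divided into those beside an intact peak, called flanking sites here, and those far from any, called distant sites. The limits of 1 kb and 10 kb were settings, not breaks seen in the gaps. The gap to the nearest intact peak was at most 1 kb at 512 of 3127 sites, or 16.4% (15.1 to 17.7), and 450 of these 512 were within 500 bases. Between 1 kb and 10 kb there were 155 sites. The other 2460 were distant sites, more than 10 kb from an intact peak. The median gap over all sites was 134498 bases (122250 to 147232). For comparison, 2.28% of the 139222 blastema peaks in no limb list had an intact peak within 1 kb, and 6.62% had one within 10 kb. At 10 kb the share of the activated–blastema sites was 21.3%. Activated peaks in no other group list had an intact peak within 1 kb in 4.03% of cases. Both comparison sets are limited by their own rules. A blastema peak in no limb list cannot overlap an intact peak, and an activated peak in no other group list cannot overlap a blastema peak. The mirror set, intact and blastema sites not called in activated limb, is built as the sites are. Of these, 9.31% had an activated peak within 1 kb and 13.3% within 10 kb. The sets differ in strength and width as well, and the differences were not tested.

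**Figure D2:**
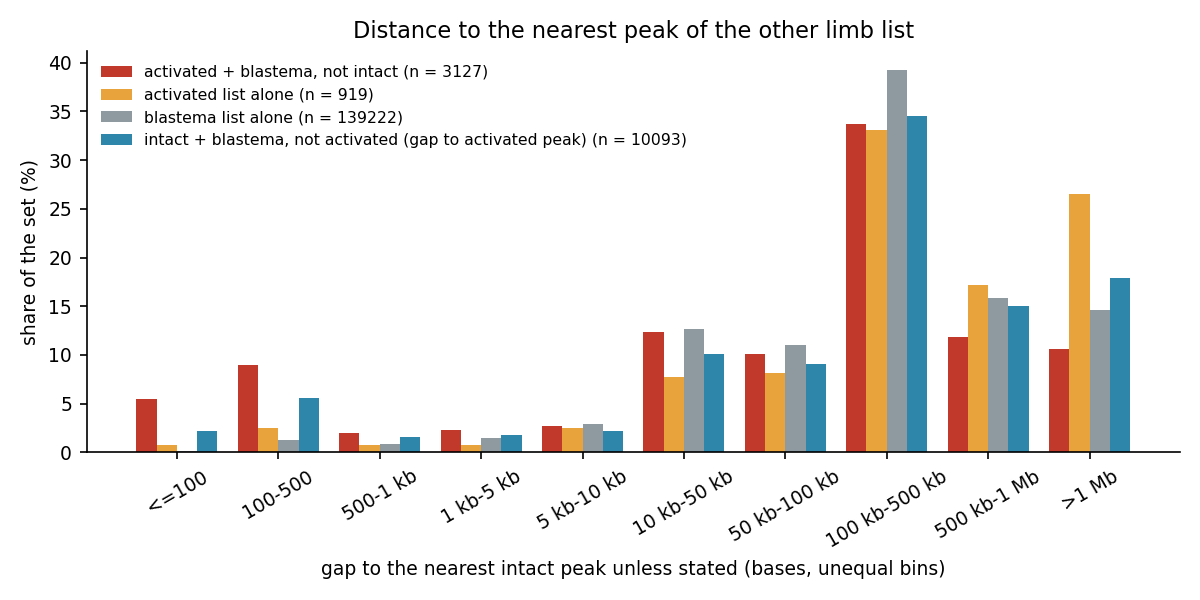
Share of each set (y, percent) by the gap to the nearest intact peak (x, bases, in unequal bins). For the blue set, intact and blastema sites not called in activated limb, the gap is to the nearest activated peak. The red bars, the activated–blastema sites, stand highest in the bins up to 500 bases, with 5.47% at 100 bases or less and 8.92% from 100 to 500 bases.

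At most of the 512 flanking sites, 1 blastema peak overlapped both the site and its intact neighbour, each by at least 1 base. A single blastema peak overlapped both the flanking site and its neighbouring intact peak at 418 of 512 sites, or 81.6% (78.0 to 84.9). At the others no single one did. The blastema peak at a flanking site had a median width of 1029 bases, against a median of 238 bases for the site itself. The neighbouring intact peak was 315 bases wide in the median, and its summit lay 480 bases from that of the site.

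The flanking sites were of 2 kinds. At 185 of 512, or 36.1%, the neighbouring intact peak was also overlapped by another activated peak, so the activated list held a further peak beside the shared one. These neighbours had a median −log10 q of 7.40 in the intact list. At the other 327 sites no activated peak overlapped the neighbouring intact peak, so the 2 limb lists called adjacent, not overlapping, stretches. Those neighbours had a median −log10 q of 4.30, and the gap between the intervals was 138 bases in the median. A single blastema peak overlapped both intervals at 83.8% of the first kind and 80.4% of the second.

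The position of the blastema summit differed between these kinds of flanking site. Cases where 1 blastema peak overlapped both intervals were compared. With a neighbour shared by both limb lists, the blastema summit was nearer to the activated summit of the site in 30 of 155 cases. It was nearer to the intact summit in the other 125, with a median distance of 102 bases from the intact summit and 528 bases from that of the site. Where the neighbour was called in intact limb but not in activated limb, the blastema summit was nearer to the site in 129 of 263 cases, or 49.0% (42.9 to 55.3), and nearer to the intact summit in 134. In that kind the counts for the site and for the intact summit were close, and no preference was tested.

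Several sites with very strong blastema peaks were of the flanking kind. The site whose blastema peak had the highest −log10 q, 83.4, was on 6q segment 0 from 179023990 to 179024254. Its blastema peak was 2994 bases wide with 238 fragments at the summit, but the site itself had a fold of 2.62 over a background of 12.7 and lay 104 bases from an intact peak. A site of 200 bases on 1p segment 1 from 272766331 to 272766530 had 10 fragments, with a blastema peak of 67 fragments (fold 13.0) whose summit was 569 bases away. A site on 1p segment 0 from 21432394 to 21432593 differed from these: its 11 fragments and the 65 fragments of its blastema peak had summits 10 bases apart, although an intact peak lay 257 bases away. A site on 4q segment 2 from 401142359 to 401142614 had 14 fragments in activated limb and 77 in blastema, with summits 33 bases apart. An intact peak lay 353 bases away and outside that blastema peak. The 5q site on segment 1 named above was the second of these 5.

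The 2460 sites more than 10 kb from an intact peak were about as narrow as the flanking sites. Their summits more often lay close to the blastema summit. The median width of the distant sites was 241 bases, against 238 bases at flanking sites. Their median pileup was 11 fragments over a background of 1.12. The flanking sites had a median pileup of 13 fragments over a background of 1.82. The median −log10 q was close in the 2 sets, 3.92 for the distant and 3.85 for the flanking sites. The blastema summit was within 100 bases of the activated summit at 53.3% (51.3 to 55.3), and it fell inside the activated interval at 68.5%. The same shares at flanking sites were 27.0% and 35.4%, and at activated peaks of all 3 lists 57.8% and 82.6%. The overlapping blastema peaks had a median width of 606 bases at distant sites and 1029 bases at flanking sites. How far their width bears on the summit distances was not tested.

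**Figure D3:**
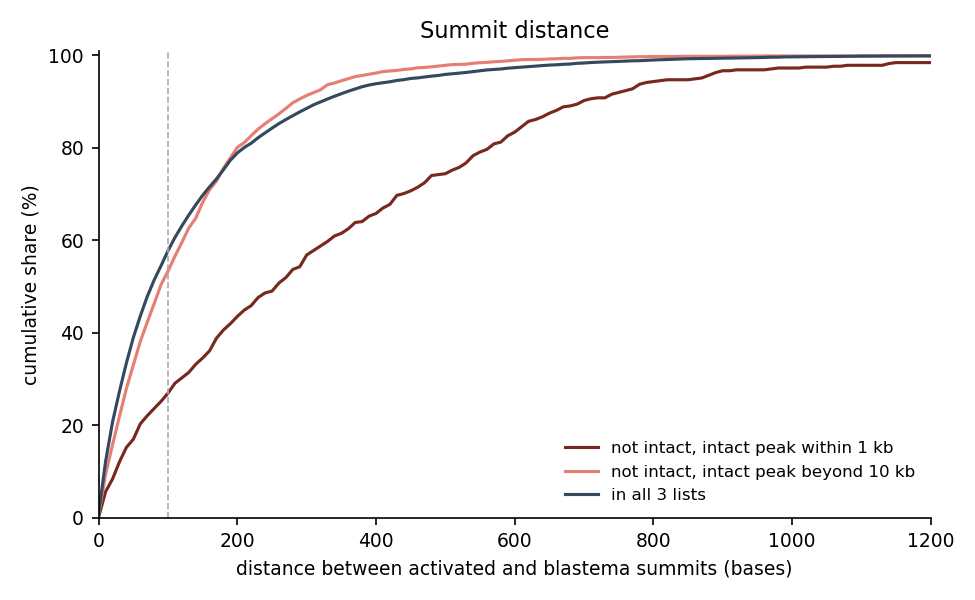
Cumulative share of activated peaks (y, percent) by the distance from their summit to the summit of the overlapping blastema peak (x, bases, with a dashed line at 100). At 100 bases the distant sites reach 53.3%, the flanking sites 27.0% and the peaks of all 3 lists 57.8%.

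The sites most remote from any intact peak, among those with a −log10 q of at least 5, were megabases away from one. On 5q segment 1 a site from 81447227 to 81447632 had 15 fragments in activated limb and 28 in blastema, with the nearest intact peak 7776287 bases away. Another on 5q segment 0 from 248860977 to 248861258 had 13 fragments. Its blastema peak was 1540 bases wide with 47 fragments, the summits were 7 bases apart and the closest intact peak was 5954841 bases off. The next was on 8q segment 1 (311101440 to 311101639), with 9 fragments in activated limb and 38 in blastema. It was followed by 6q segment 0 (134407155 to 134407354), with 8 and 17 fragments, and by 4q segment 0 (154417342 to 154417584), with 10 and 18.

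The widest sites were of both kinds. The widest, 735 bases on 9p from 330152147 to 330152881, lay 3 bases from an intact peak, and its blastema summit was 450 bases from its own. The next, on 4q segment 1 from 266374608 to 266375315, was 708 bases wide and 577609 bases from an intact peak. It was one of the minority of sites wider than their blastema peak, here 324 bases. A site of 695 bases on 3p segment 0 from 131218043 to 131218737 also exceeded its blastema peak of 593 bases. On 8q segment 0 a site of 689 bases lay from 274805021 to 274805709 inside a blastema peak of 1081 bases. The last of these 5, on 9p from 147239147 to 147239825, was 679 bases wide with summits 4 bases apart.

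Over all 3127 sites, 3115 distinct blastema peaks were involved, 23 of which overlapped 2 sites each. The blastema peak was wider than the site in 94.8% of cases, by a median ratio of 2.45, and wholly contained the site in 74.2%. These blastema peaks were in the upper part of their own list. At 27.8% of sites the overlapping blastema peak was in the strongest decile, and at 58.3% it was in the strongest 2 deciles. Only 11.6% of sites had one in the weaker 5 deciles. Activated peaks of all 3 lists had a blastema peak of the strongest decile in 80.7% of cases. These ranks come with the length of the list. The blastema list held 163517 peaks on named arms, against 16842 in the activated list, so its strongest 2 deciles alone outnumber the whole activated list. A decile of the activated list was therefore not set against the same decile of the blastema list.

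The rank of the blastema peak differed with position. It was in the strongest decile at 54.7% (50.3 to 59.1) of flanking sites and at 22.1% (20.5 to 23.8) of distant sites. At 418 of 512 flanking sites 1 blastema peak also overlapped the neighbouring intact peak, and its rank is that of its own summit. That summit was nearer to the intact summit in 259 of the 418 cases and nearer to the site in 159. How far this bears on the difference in rank was not tested. Strength in the 2 lists was only loosely related. Across the 3127 sites the −log10 q in activated limb and in blastema had a Spearman's rho of 0.18, and across the 12680 activated peaks of all 3 lists it was 0.51. These are descriptions across peaks of the same libraries, with a restricted range among the sites.

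**Figure D4:**
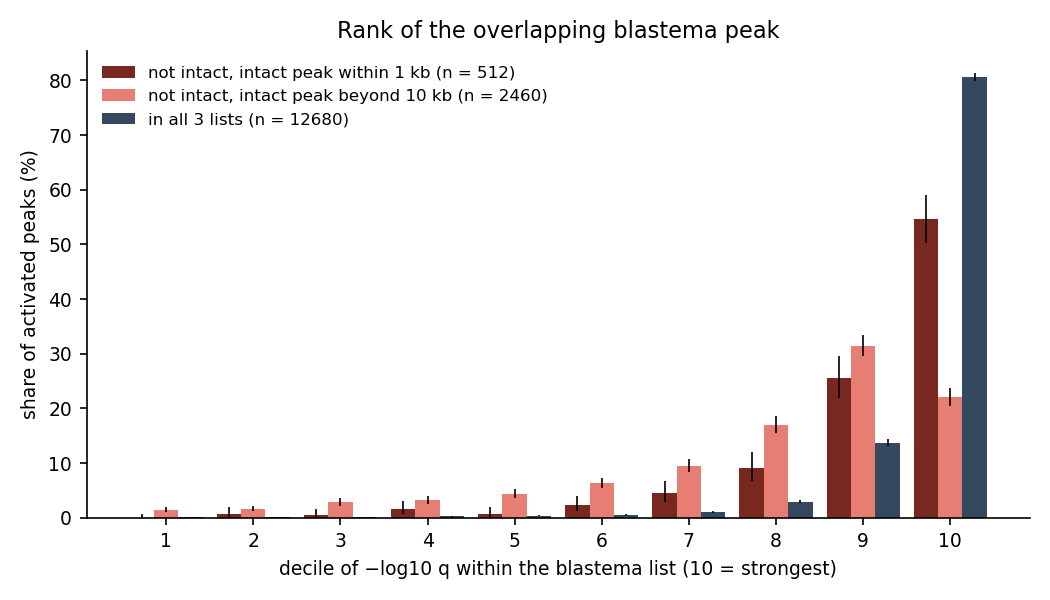
Share of activated peaks (y, percent, with exact 95% intervals) by the decile of −log10 q of the overlapping blastema peak within the blastema list (x, 10 strongest). The strongest decile holds 54.7% of flanking sites, 22.1% of distant sites and 80.7% of activated peaks of all 3 lists.

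Sites with a higher −log10 q had blastema summits closer to their own and more often a blastema peak of the strongest decile. At the 785 sites with a −log10 q of at least 5, the blastema summit was within 100 bases in 58.5% (54.9 to 61.9) and the blastema peak was in the strongest decile in 38.5%. At the 770 sites below 3, these shares were 41.2% (37.7 to 44.7) and 20.0%. The median summit distance was 72 bases in the first set and 133 bases in the second. How far the number of fragments at the summit bears on these distances was not tested. Of the 785 sites with a −log10 q of at least 5, 607 were more than 10 kb from an intact peak. That is near the share over all sites, 2460 of 3127. Of the 15 sites in the strongest decile of the activated list, 10 were more than 10 kb from an intact peak, or 66.7% (38.4 to 88.2). Another 3 were within 1 kb.

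The all-sample list, which by its name draws on the same samples and so is not independent, overlapped all 3127 sites. This is not particular to the sites: the list held 491444 peaks and also overlapped all 12680 activated peaks of all 3 lists. It overlapped 772 of the 919 activated peaks in no other group list, or 84.0%. At 465 sites, 14.9%, the all-sample peak also overlapped an intact peak. Its summit was within 100 bases of the activated summit at 64.1% of distant sites and 29.7% of flanking sites. The signal of intact limb at the sites could not be recovered by subtracting lists. At the 5 bases where the summits of all 4 lists coincided, the all-sample pileup was 0.795 to 1.04 times the sum of the group pileups. Its lowest background, 4.22 fragments, was above the sum of those of the 3 group lists. How it was pooled is not known.

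The rule has an edge at either overlap. Sites within 10 bases of an intact peak numbered 22, and 38 activated peaks overlapped by blastema missed the rule by 10 or fewer bases of intact overlap. Just inside, sites on 2q segment 1 (228846216 to 228846453) and 8p segment 0 (53336849 to 53337073) touched an intact peak with a gap of 0 bases. A site on 1p segment 1 from 189383362 to 189383673 had a gap of 1 base. They had 15, 10 and 13 fragments. Just outside, peaks on 1p segment 2 (278395070 to 278395429), 2p segment 0 (97053048 to 97053247) and 14q (275699972 to 275700171) overlapped an intact peak by 1 base. Those had 11, 8 and 10 fragments. On the blastema side 8 sites were overlapped by 10 or fewer bases. The smallest overlaps were 2 bases on 8q segment 1 (216964269 to 216964468), 3 bases on 6q segment 0 (109441513 to 109441712) and 5 bases on 1q segment 2 (69832335 to 69832534). The nearest misses were gaps of 2 bases on 8p segment 0 (2195018 to 2195217), 5 bases on 6q segment 1 (382548219 to 382548518) and 13 bases on 1p segment 2 (23794685 to 23794884). Within 10 bases, the blastema edge thus held few sites, and the intact edge somewhat more. Under a 50% reciprocal overlap the share of sites among activated peaks was much lower, as given below.

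The mirror set was larger and differed from the activated–blastema sites in most of the measures taken. Among 25110 intact peaks on named arms, 10093, or 40.2%, were overlapped by a blastema peak and by no activated peak. Of the activated peaks without intact overlap, 77.3% were overlapped by blastema, and of the intact peaks without activated overlap, 80.8%. Its peaks were wider, more seldom beside a peak of the other limb list and closer to one another. Median widths were 240 bases at the activated–blastema sites and 278 bases at the intact–blastema sites, with blastema peaks of 653 and 687 bases. The shortest width was found at 26.2% and 16.0% of sites. Peaks of all 3 lists differed in the same direction, so this is not particular to the mirror set. Their median width was 377 bases in the activated list and 490 bases in the intact list, with 6.62% and 2.45% at the shortest width. Another site of the same set lay within 100 kb at 9.75% of activated–blastema and 22.9% of intact–blastema sites, which are also more numerous. The position relative to the blastema peak was closer: the blastema peak wholly contained 74.2% and 73.6% of sites. The blastema summit was within 100 bases at 48.8% (47.1 to 50.6) of activated–blastema sites and at 51.2% (50.3 to 52.2) of intact–blastema sites. A peak of the other limb list lay within 1 kb at 16.4% of activated–blastema and 9.31% of intact–blastema sites. The intact list is the longer of the 2 limb lists, and these shares were not tested against each other. Blastema peaks in the strongest decile were found at 27.8% of activated–blastema and 36.2% (35.3 to 37.2) of intact–blastema sites.

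The sites were spread over all 28 chromosome arms in near proportion to the activated list. The highest share of an arm's activated peaks was on 13p, with 65 of 262, or 24.8% (19.7 to 30.5). The lowest was on 14p, with 26 of 190, or 13.7% (9.14 to 19.4). Against 18.6% over all arms, only 2 arms, 13p and 4p, had an interval that did not include it. Arm 4p had 78 of 564, or 13.8% (11.1 to 17.0). With 28 arms looked at, intervals of this kind leave out the overall share on some by counting error alone. On p arms and q arms the shares were 18.4% and 18.7%. In the first 20 Mb of the p arms it was 13.9% (10.3 to 18.0) and of the q arms 17.5% (11.3 to 25.2). The interval for the first 20 Mb of the p arms also left out 18.6%, and this was not tested. Chromosome 13 as a whole had 21.1% and chromosome 14 had 15.7%.

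**Figure D5:**
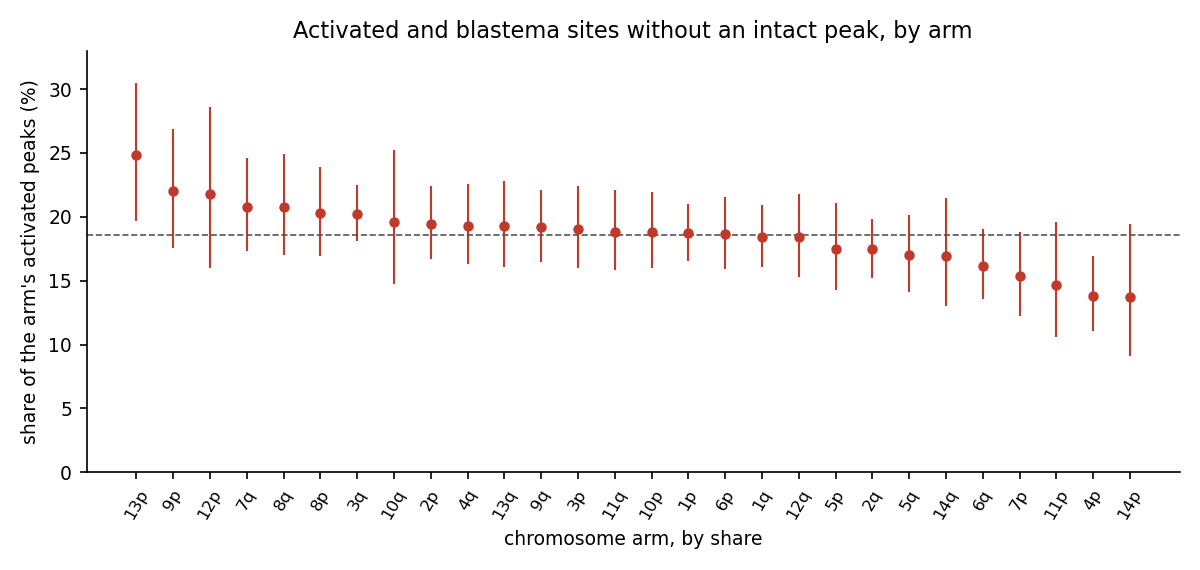
Share of each chromosome arm's systemically activated peaks that are activated–blastema sites (y, percent, with exact 95% intervals), with arms in order of share (x). The dashed line is 18.6%, the share over all arms, and shares range from 24.8% on 13p to 13.7% on 14p.

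On a finer scale the sites were scattered. The median distance from a site to the next was 1951238 bases, and 9.75% of sites had another within 100 kb, against 26.2% of activated peaks of all 3 lists, which are also more numerous. Windows of 20 Mb that held a site numbered 1074, with a median of 2 sites each. The most sites in a window was 17, on 1q between 1400 and 1420 Mb of the arm, but that window held 106 activated peaks, so its share was 16.0%. The next, on 13p between 200 and 220 Mb, had 16 of 59, or 27.1% (16.4 to 40.3). A count of 12 followed in 3 windows. These were the first 20 Mb of 12p with 12 of 30 activated peaks, or 40.0% (22.7 to 59.4), 12q between 200 and 220 Mb with 12 of 78, or 15.4%, and 9q between 960 and 980 Mb with 12 of 83, or 14.5%. Over the 229 windows with at least 20 activated peaks the share ran from 0 to 40.9%. These windows were picked by their count of sites and carry no test.

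Tight groups of sites were rare. In 2822 cases a site had no other within 100 kb, 138 runs held 2 sites, 7 held 3 and 2 held 4. The closest run of 4 was on 12p, inside the 12p window just named, and spanned 43.6 kb from 5145478 to 5189117. It held no intact peak, and the nearest was 210217 bases from the closest of its sites. The 4 sites had 18, 13, 16 and 16 fragments in activated limb, with folds of 5.52, 5.56, 4.38 and 4.43. The last pair, from 5188570 to 5188784 and from 5188898 to 5189117, lay under 1 blastema peak of 1030 bases with 54 fragments and a −log10 q of 14.9. The blastema peaks over the first pair had 22 and 18 fragments and were in deciles 4 and 6 of that list.

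The other run of 4 lay on 3q segment 2 from 212891632 to 212975006 and spanned 83.4 kb, again with no intact peak and with 8 blastema peaks. Its sites had 16, 24, 15 and 22 fragments in activated limb, and their blastema peaks had 44, 79, 44 and 34. The strongest of them in activated limb, from 212974661 to 212975006 with a −log10 q of 8.48, had a weak blastema peak of decile 4. The site from 212917297 to 212917771 lay in a blastema peak of 1793 bases in decile 10. These runs were chosen after their values were seen.

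Low fragment counts limit what the absence of an intact peak means at a single site. The median of 11 fragments at a site in activated limb carries a wide counting error. An intact call at the sites would have needed a median of 8 to 9 fragments. For this the intact list was taken as 1.08 or 1.41 times as deep as the activated list, by 2 measures of background. It was thus not the shallower of the limb lists. The rule kept sites for being called in activated limb and not in intact limb, so their activated pileups cannot serve as an estimate of how open they are. Whether any one site was less open in intact limb cannot be told from the lists. The number of sites itself depended on the lists: their share of activated peaks was 5.43% with the blastema list cut to the length of the activated list. It was 7.36% under a 50% reciprocal overlap, and 6.67% where all 3 lists were limited to folds of 5 or more.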

How the data were processed

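Live 4C cells were transposed with Tn5 for 30 min at 37 °C, per the labels' protocols. Per the submitters' processing notes, alignment used Bowtie2 2.3.2 and peak calling used MACS2. The genome build, duplicate handling and any control were not given in the sources used here. Deposited lists give, per peak, positions, a score (10 times the −log10 q, not used), the fold as a ratio over background, the −log10 p and the −log10 q, all the authors' own values. No sample has values of its own.

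Overlaps, gaps and intervals were computed with Python 3.11.15, numpy 2.4.6, pandas 2.3.3 and scipy 1.17.1, and figures drawn with matplotlib 3.10.9. Pileups and backgrounds were solved from the fold and −log10 p within 0.001, and gave a single answer for 99.8% of activated, 99.9% of intact and 100% of blastema peaks. Overlap, gap and pileup steps were tested on simulated data. The blastema peak of a site was the overlapping one with the nearest summit. Named peaks were those with the 10 highest −log10 q or folds, the 5 strongest in blastema, widest or most remote, and 3 on either side of each edge. Members and rules were chosen with earlier results of these data known. Intervals are Clopper-Pearson for shares and from order statistics for medians.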

Additional observations from a re-analysis of the deposited data

Results flagged for a closer look

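The rule for activated–blastema sites was limited to named chromosome arms. Of 484 activated peaks on the unplaced sequences outside it, 98 had a blastema overlap and no intact overlap. That was 20.2% (95% interval 16.8 to 24.1), and the share on named arms, 18.6%, lay inside this interval. The 98 peaks were flagged only because the rule left them out. They were not otherwise described.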

How the results depend on the processing

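Each of 8 values was recomputed under 9 settings. Merging peaks within 100 bases and including unplaced sequences left all 8 within their counting intervals. Of the 72 recomputed values, 47 moved outside them, all under the other 7 settings and none with a test to lose. The causes were not tested beyond the change each setting makes to the lists. The share of activated peaks that are activated–blastema sites, 18.6%, became 7.36% under a 50% reciprocal overlap and 23.8% with the activated summit inside the other interval. Both settings changed the intact overlap as well as the blastema overlap. Under them a peak with some intact overlap could count as a site, which bears on the gaps to intact peaks below. The share was 15.5% with no intact peak within 1 kb, and 6.67% with folds of 5 or more. Cutting all 3 lists to equal length gave 10.2%, and cutting the blastema list alone to the length of the activated list gave 5.43%. The blastema share of activated peaks without intact overlap, 77.3%, was 16.1% (50% shared), 74.8% (1 kb), 87.4% (−log10 q of 5 or more), 18.7% (fold), 30.4% (equal lengths) and 22.6% (blastema shortened). The median width of 240 bases became 320 (50% shared), 256 (summit), 297 (−log10 q), 260 (fold) and 266 bases (equal lengths). The median gap to an intact peak, 134498 bases, ranged from 40728 (summit) through 64310 (50% shared), 66544 (blastema shortened), 203109 (equal lengths), 204091 (1 kb) and 267880 (fold) to 335207 bases (−log10 q). The share within 10 kb of an intact peak, 21.3%, was 36.4% (50% shared), 42.5% (summit), 5.93% (1 kb), 10.1% (−log10 q), 15.0% (fold) and 36.7% (blastema shortened). Sites whose blastema peak also overlapped an intact peak, 13.5%, were 27.9% (50% shared), 36.6% (summit), 0.153% (1 kb), 5.58% (−log10 q), 10.7% (fold), 15.9% (equal lengths) and 29.2% (blastema shortened). Blastema summits within 100 bases, 48.8%, were 62.2% (50% shared), 46.3% (summit), 53.1% (1 kb), 59.0% (−log10 q), 59.6% (fold) and 52.1% (equal lengths). Sites with another within 100 kb, 9.75%, were 4.44% (50% shared), 5.52% (−log10 q), 3.51% (fold) and 5.91% (blastema shortened). No paired analysis was possible because each group has 1 pooled list and no sample has values of its own, and no replicate could be left out for the same reason.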
